A study of Mus musculus with 22 samples.

Results

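hnRNP A1 CLIPseq lists 136207 footprints from the spinal cords of 10 mice, and 17731 of them lay in an intron of a very long gene. A footprint was counted here when its midpoint fell inside a protein-coding gene span of at least 200000 nt on GRCm38 and in no annotated exon of any gene. GENCODE annotates 998 such genes among 21951 protein-coding genes, and 866 of them held at least 1 of these footprints. All mice were female wild-type C57BL/6. The 3 naïve mice were not immunised. The 7 mice with experimental autoimmune encephalomyelitis (EAE), a model of multiple sclerosis, had been immunised with the myelin peptide MOG(35-55) and were killed 15 days after clinical onset. Their age at immunisation is given as 12 weeks in one source and 8 weeks in another. Of these, 3 had mild disease, with clinical scores of 1.0 to 1.5, and 4 had severe disease, with scores of 2.5 to 3.0. Each mouse gave 1 immunoprecipitation library, and mice are named by the numbers of their labels. EAE is heterogeneous between animals, and whole spinal cord mixes all its cell types.

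hnRNP A1 is a nuclear RNA-binding protein that binds nascent transcripts, recognises UAG and represses the use of nearby splice sites. In the central nervous system the longest genes are largely those of synaptic adhesion molecules, ion channels and their scaffolds, whose introns make up most of their transcripts. Introns this long carry many simple repeats, in which a short unit such as GATA is copied head to tail. Copying a unit that contains UAG gives an array of binding motifs on 1 strand and an array of the reverse complement, CUA, on the other.

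The sequences that recurred between mice are given first. Footprints of different mice that overlapped by at least 1 nt were merged into 13287 regions. The 6 regions found in at least 8 mice are listed with 2 of the 26 found in 7 mice, those with the longest stretch common to all 7. They are given in the sense of the host gene, each as the stretch covered in the largest number of its mice. For Npas3 the stretch covered in at least 5 mice is shown, because the stretch covered in the most mice, 8, was only 22 nt. Capitals mark TAG, which is UAG in the RNA. Letters are those of the GRCm38 reference at RefSeq and not of the reads.
Npas3: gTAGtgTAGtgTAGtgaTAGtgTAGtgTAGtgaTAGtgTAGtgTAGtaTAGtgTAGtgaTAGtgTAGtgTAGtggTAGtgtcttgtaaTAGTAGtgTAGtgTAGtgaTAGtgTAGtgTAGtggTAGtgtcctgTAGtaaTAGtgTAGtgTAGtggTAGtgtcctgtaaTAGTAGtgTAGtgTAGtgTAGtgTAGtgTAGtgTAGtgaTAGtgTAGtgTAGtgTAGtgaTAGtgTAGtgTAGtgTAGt
Dscam: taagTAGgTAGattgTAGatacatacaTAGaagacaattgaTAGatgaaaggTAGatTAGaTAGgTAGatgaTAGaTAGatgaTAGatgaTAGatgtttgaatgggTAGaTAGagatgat
Celf2: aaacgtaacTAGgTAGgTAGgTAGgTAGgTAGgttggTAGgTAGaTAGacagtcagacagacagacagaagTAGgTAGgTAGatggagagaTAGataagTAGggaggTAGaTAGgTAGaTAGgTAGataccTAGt
Akap6: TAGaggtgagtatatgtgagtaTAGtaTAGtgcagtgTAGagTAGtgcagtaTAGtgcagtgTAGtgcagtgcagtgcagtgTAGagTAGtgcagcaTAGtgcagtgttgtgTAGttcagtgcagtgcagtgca
Cdk14: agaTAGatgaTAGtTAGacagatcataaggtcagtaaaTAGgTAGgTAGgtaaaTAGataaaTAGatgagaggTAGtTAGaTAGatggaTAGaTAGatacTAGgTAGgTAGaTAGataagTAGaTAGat
Pam: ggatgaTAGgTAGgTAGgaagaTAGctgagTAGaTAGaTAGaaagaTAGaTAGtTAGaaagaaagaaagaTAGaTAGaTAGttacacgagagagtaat
Camta1: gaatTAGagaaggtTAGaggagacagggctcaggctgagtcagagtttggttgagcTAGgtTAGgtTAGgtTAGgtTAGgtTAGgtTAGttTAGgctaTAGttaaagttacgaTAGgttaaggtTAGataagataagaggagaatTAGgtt
Dlg2: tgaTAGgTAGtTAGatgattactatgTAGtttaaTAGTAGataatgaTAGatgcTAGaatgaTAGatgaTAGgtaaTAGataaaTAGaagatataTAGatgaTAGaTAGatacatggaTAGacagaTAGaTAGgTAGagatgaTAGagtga

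Npas3, which encodes a neuronal PAS-domain transcription factor, held the 1 region found in all 10 mice. The stretch shown (chr12:53270569-53270815, plus strand, intron 2 of 13) carries 44 UAG in 247 nt and no CUA. The region of Dscam, a homophilic cell adhesion molecule of developing neurites, was found in 9 mice, and its stretch (chr16:97087729-97087848, minus strand, intron 1 of 33) carries 15 UAG in 120 nt. Regions in 8 mice lay in Celf2 (chr2:6827176-6827310, minus, intron 13 of 26), Akap6 (chr12:52945081-52945214, plus, intron 7 of 13), Cdk14 (chr5:4875448-4875576, minus, intron 20 of 20) and Pam (chr1:97853810-97853907, minus, intron 20 of 31). Celf2 encodes a splicing regulator, Akap6 an anchor of protein kinase A, Cdk14 a cyclin-dependent kinase and Pam the enzyme that amidates neuropeptides. The regions shown from the 26 in 7 mice lay in Camta1 (chr4:151313623-151313773, minus, intron 13 of 36) and Dlg2 (chr7:91175291-91175441, plus, intron 7 of 36). Camta1 encodes a calmodulin-binding transcription activator and Dlg2 the synaptic scaffold PSD-93. The stretch of Celf2 carries 20 UAG and 2 CUA, that of Cdk14 19 and 1, that of Pam 13 and 0, that of Akap6 11 and 0, that of Camta1 14 and 2, and that of Dlg2 20 and 2. In these 8 regions UAG on the gene strand outnumbered CUA. Introns were numbered over the merged exons of all transcripts of a gene.

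Recurrence did not require such an array. Of the 32 regions found in at least 7 mice, 30 lay in a single gene span, and 15 of these 30 held a UAG array, defined as at least 5 UAG with starts no more than 10 nt apart, while 15 did not. A region of Ank3 in 7 mice (chr10:69846820-69846969, plus strand, intron 17 of 62) is shown as one without. Ank3 encodes ankyrin G, which organises the axon initial segment, and the stretch is a CA-rich repeat with 4 UAG in 150 nt.
Ank3: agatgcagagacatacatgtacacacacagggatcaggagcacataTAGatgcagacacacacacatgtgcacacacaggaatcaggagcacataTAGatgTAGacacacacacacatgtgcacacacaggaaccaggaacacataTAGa
UAG outnumbered CUA in 21 of the 30 regions and did not in 9. A single region of the 30, in Wdr17, held an array of CUA instead.

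Arrays of UAG on the gene strand were covered more often than arrays of CUA, although most arrays of both kinds had no footprint. On the gene strand, 389940995 nt of intronic sequence belonging to no other gene held 4941 UAG arrays and 4600 CUA arrays, with median lengths of 38 and 39 nt. A footprint of at least 1 mouse overlapped 543 of the UAG arrays, which is 11%, and 14 of the CUA arrays, which is 0.304%. Footprints of at least 5 mice overlapped 120 UAG arrays and 1 CUA array. In naïve mice 1, 2 and 3, 277, 62 and 294 UAG arrays were overlapped, against 8, 4 and 4 CUA arrays. In mild EAE mice 3, 4 and 7 the numbers were 186, 178 and 182 against 2, 2 and 1. In severe EAE mice 1, 2, 5 and 6 they were 21, 2, 247 and 25 against 1, 0, 4 and 0. UAG arrays exceeded CUA arrays in all 10 mice. The share overlapped in any mouse was 10.2% for UAG arrays of 5 to 9 copies, 11.4% for those of 10 to 19 and 14.9% for those of 20 or more. These counts were chosen after the motif results had been seen and are given without a test. The footprint lists carry no strand, so the gene strand stands in for that of the RNA.

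**Figure D1:**
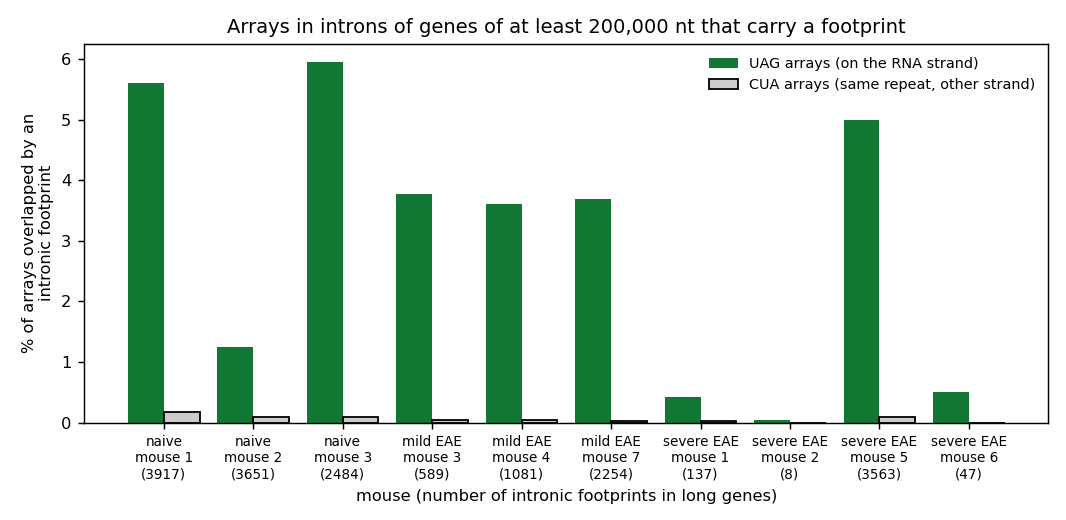
Percent of the UAG arrays (green bars, 4941 arrays) and of the CUA arrays (grey bars, 4600 arrays) in introns of genes of at least 200000 nt that an intronic footprint of each mouse overlapped, with the number of such footprints in brackets. The green bar is the higher one in every mouse, from 0.0405% in severe EAE mouse 2, which had 8 footprints, to 5.95% in naïve mouse 3.

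Over all footprints that lay in 1 gene span only, 16873 of the 17731, UAG was compared with that in flanks, which are equally long windows starting 200 nt up- and downstream. Naïve mice 1, 2 and 3 had 21.9, 13.3 and 27.5 UAG for every 1000 nt of footprint, and their flanks had 15.0, 14.1 and 14.6. Mild EAE mice 3, 4 and 7 had 42.9, 29.8 and 22.9 against 15.8, 14.6 and 14.6. Severe EAE mice 1, 2, 5 and 6 had 22.2, 48.0, 21.9 and 57.6 against 11.8, 21, 14.4 and 20.3. Naïve mouse 2 alone lay below its flanks. As a log2 ratio of footprints to flanks this is 0.87 ± 0.47 (SD, n = 10), above 0 in 9 of 10 mice (exact sign-flip test, two-sided, adjusted p = 0.00625 over 8 tests). Severe EAE mice 1, 2 and 6, which had few footprints of this kind, had log2 ratios of 0.91, 1.19 and 1.51, and without them the mean was 0.73 ± 0.47 (SD, n = 7, exact sign-flip test, adjusted p = 0.0417, also added after the values had been seen). When footprints with a UAG array were left out, the log2 ratio fell to 0.27 and remained above 0 in 9 mice (exact sign-flip test, adjusted p = 0.0156, a comparison added after the values had been seen).

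The other orders of the same letters served as a measure of base composition. GAU, which follows from copies of GATA, had a mean log2 ratio of 0.73 ± 0.50 (SD, n = 10) and GUA one of 0.40 ± 0.53 (SD, n = 10). AGU, UGA and AUG had means of 0.16, 0.02 and −0.08. CUA, the reverse complement, was below the flanks in all 10 mice, with a mean of −0.34 ± 0.21 (SD, n = 10). In naïve mouse 1 footprints held 2.18 UAG for each CUA and its flanks 1.13, and in mild EAE mouse 3 the ratios were 6.49 and 1.34. In naïve mouse 2 they were 1.12 and 1.08. Runs of uracil were rare: UUUU was not above the flanks in any mouse, and its log2 ratio ranged from −2.26 to −1.22 in the 7 mice with at least 500 footprints. AGGU, a second motif tied to hnRNP A1 in this study, had a log2 ratio of 0.61 ± 0.40 (SD, n = 10), above 0 in 9 mice (exact sign-flip test, adjusted p = 0.00625). AGGU and UAG share letters where UAGG is copied head to tail, so these 2 results are not independent.

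**Figure D2:**
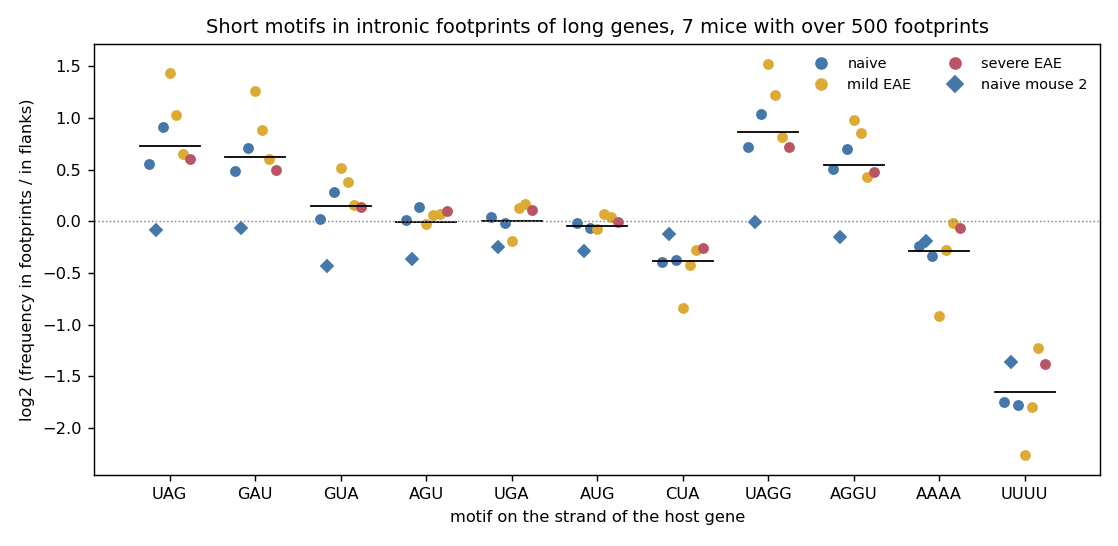
Log2 ratio of motif frequency in intronic footprints of long genes to that in flanks 200 nt away, on the strand of the host gene, for the 7 mice with at least 500 footprints; each point is a mouse and each bar the mean of 7. UAG and GAU lie above 0 in all but naïve mouse 2 (diamond), at −0.08 and −0.07, and UUUU lies below −1 in all 7.

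UAG frequency did not separate naïve from EAE mice. The log2 ratio averaged 0.46 ± 0.50 (SD, n = 3) without and 1.05 ± 0.36 (SD, n = 7) with disease, and 0.59 between them did not pass (exact permutation test, two-sided, adjusted p = 0.15 over 2 motifs). For AGGU the means were 0.35 ± 0.45 (SD, n = 3) and 0.72 ± 0.35 (SD, n = 7), with an adjusted p of 0.208 by the exact permutation test. Without naïve mouse 2 the differences were 0.32 for UAG and 0.11 for AGGU, and without footprints that held a UAG array 0.18 and 0.12. Against intronic footprints of genes under 200000 nt in the same mouse, the UAG log2 ratio was higher by 0.25 ± 0.36 (SD, n = 10) in the long genes, which held in 7 of 10 mice and did not pass the test (exact sign-flip test, adjusted p = 0.0737). Leaving out naïve mouse 1 or naïve mouse 2 gave 0.31 and 0.29, each with an adjusted p of 0.0491 by the exact sign-flip test. Without severe EAE mice 1, 2 and 6 the difference was 0.08 (exact sign-flip test, adjusted p = 0.516), and without footprints that held a UAG array it was 0.03 (exact sign-flip test, adjusted p = 0.479).

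UAG content grew with the number of mice that shared a region. Of the 13287 regions, 10921 were found in 1 mouse, 2366 in at least 2 and 220 in at least 5. Regions of 1 mouse held 16.2 UAG per 1000 nt, those of 2 mice 20.9, those of 5 mice 35.8 and those of at least 7 mice 46.6. CUA stayed between 8.86 and 11.5 per 1000 nt in all these classes. A UAG array was present in 1.46% of the regions of 1 mouse, in 26.5% of those of 5 mice and in 50% of those of at least 7 mice. Sequence that the genome marks as repetitive (soft-masked) made up 37.5%, 61.0% and 70.9% of the same classes and thus moved with recurrence; its part in the result was not tested. Regions of more mice were also longer, 148 nt on average in 1 mouse and 465 nt in at least 7, which merging brings about. Within each of the 10 mice, footprints in regions of at least 5 mice held more UAG than those found in that mouse alone. Severe EAE mice 1, 2 and 6 had only 21, 1 and 16 footprints in such regions. Footprints of naïve mouse 1 in regions of its own held 16.7 UAG per 1000 nt and those in regions of at least 5 mice 52.2. In naïve mouse 2 the values were 11.7 and 37.6.

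**Figure D3:**
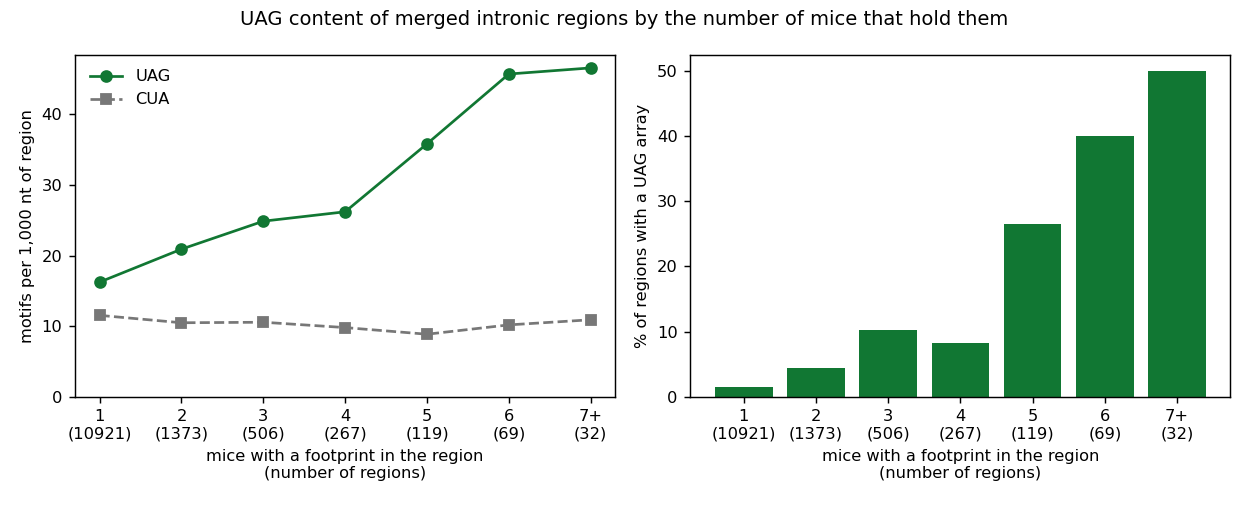
Left, UAG (circles) and CUA (squares) per 1000 nt of merged region by the number of mice with a footprint in it, with the number of regions in brackets; right, percent of those regions that hold a UAG array. UAG rises from 16.2 to 46.6 per 1000 nt while CUA stays between 8.86 and 11.5.

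Few regions followed the disease groups. All 3 naïve mice shared 154 regions, of which 117 also had a footprint in at least 1 EAE mouse and 37 had none. At least 3 of the 7 EAE mice shared 309 regions, and 254 of these had a footprint in a naïve mouse, while 55 did not. UAG stood at 22.3 per 1000 nt in the 37 naïve regions and at 30.9 in the 55 EAE regions. It was 24.9 in all regions of 3 mice and 30.3 in regions of all 3 naïve and at least 3 EAE mice. Over all regions, most of them found in 1 mouse only, it was 18.6. Of the stretches of at most 300 nt common to the naïve mice and without a footprint in EAE, a long one lay in Nrg1 (chr8:32628962-32629120, minus strand, intron 1 of 17), the gene of a growth factor for Schwann cells and oligodendrocytes, and held 1 UAG. EAE regions to show were taken from those in 1 gene span with a stretch of at most 300 nt common to all their mice. They were picked by the number of mice and then by the length of the stretch. Those shown lay in Gab2 (chr7:97240874-97240972, plus strand, intron 2 of 9, 5 mice), which encodes a signalling adaptor, and in Stk3 (chr15:35013607-35013742, minus strand, intron 8 of 12, 4 mice), which encodes a kinase of the Hippo pathway. The genome soft-masks 94.3% of the first of these 3 sequences, 100% of the second and 0% of the third. Gab2 holds 1 UAG, and Stk3 holds 11 in 136 nt.
Nrg1: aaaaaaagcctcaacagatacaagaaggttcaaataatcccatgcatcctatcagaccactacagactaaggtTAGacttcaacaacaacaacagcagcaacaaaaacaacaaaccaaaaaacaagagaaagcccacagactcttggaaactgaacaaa
Gab2: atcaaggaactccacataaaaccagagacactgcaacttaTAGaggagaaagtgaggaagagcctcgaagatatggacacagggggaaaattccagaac
Stk3: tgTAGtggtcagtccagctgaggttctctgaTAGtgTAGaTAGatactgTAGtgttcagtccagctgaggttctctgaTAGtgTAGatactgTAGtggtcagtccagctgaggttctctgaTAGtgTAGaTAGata
With lists of such unequal length, absence from a group is also a matter of how many footprints its mice had.

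Intronic footprints of long genes took a smaller share of the footprints in genes in EAE than in naïve mice. The shares were 25.4%, 23.3% and 15.5% in naïve mice 1, 2 and 3. Mild EAE mice 3, 4 and 7 had 4.31%, 12.3% and 9.95%. Severe EAE mice 1, 2, 5 and 6 had 6.04%, 4.68%, 12.0% and 7.82%. No EAE mouse reached the lowest naïve mouse. The mean fell from 21.4% ± 5.20 (SD, n = 3) to 8.15% ± 3.33 (SD, n = 7), and the difference of −13.2 percentage points passed the exact permutation test (two-sided, adjusted p = 0.025 over 3 contrasts, with p = 0.00833 the smallest that 3 against 7 mice can give). Severe EAE differed from naïve by −13.8 points (exact permutation test, adjusted p = 0.0429). Mild EAE differed by −12.6 points, and its p of 0.1 is the smallest that an exact permutation test of 3 against 3 allows. Without the short lists of severe EAE mice 1, 2 and 6 the difference was −11.8 points with p = 0.0286, the smallest that 3 against 4 mice allow, and an adjusted p of 0.0571 (exact permutation test). In tissue from whole spinal cord, fewer cells of a type and less RNA per cell cannot be told apart.

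The numbers behind these shares were unequal. Naïve mice had 3917, 3651 and 2484 such footprints, mice with mild disease 589, 1081 and 2254, and those with severe disease 137, 8, 3563 and 47. The share of severe EAE mouse 2 therefore had a Wilson interval of 2.39% to 8.96%, and that of severe EAE mouse 6 one of 5.93% to 10.2%, whereas that of naïve mouse 1 was 24.7% to 26.1%. These 95% intervals cover counting error only. The number of reads behind a footprint is not in the lists.

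The smaller share was not shown to be particular to long genes. Among intronic footprints of all protein-coding genes, those of long genes made up 71.6%, 59.6% and 61.2% in naïve mice, 44.9%, 58.3% and 60.5% in mild disease and 38.9%, 15.4%, 62.1% and 38.2% in severe disease. The means were 64.1% ± 6.55 (SD, n = 3) and 45.5% ± 16.7 (SD, n = 7), and the groups overlapped (exact permutation test, adjusted p = 0.171). The 3 lowest severe EAE values came from the 3 shortest lists. Footprints in introns of genes under 200000 nt made up 9.84% to 15.8% of gene footprints in naïve mice and 5.30% to 25.7% in EAE mice. Long genes hold 44.1% of the non-exonic sequence of protein-coding genes. Per Mb of that sequence, naïve mice had 9.51, 8.86 and 6.03 footprints in long genes and 2.97, 4.74 and 3.01 in shorter ones. Long genes were also the denser class in mild EAE mice 3, 4 and 7 and in severe EAE mouse 5, with 1.43 against 1.38, 2.62 against 1.48, 5.47 against 2.82 and 8.65 against 4.17. In severe EAE mice 1, 2 and 6 the order was the opposite, with 0.332 against 0.411, 0.0194 against 0.0842 and 0.114 against 0.145.

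**Figure D4:**
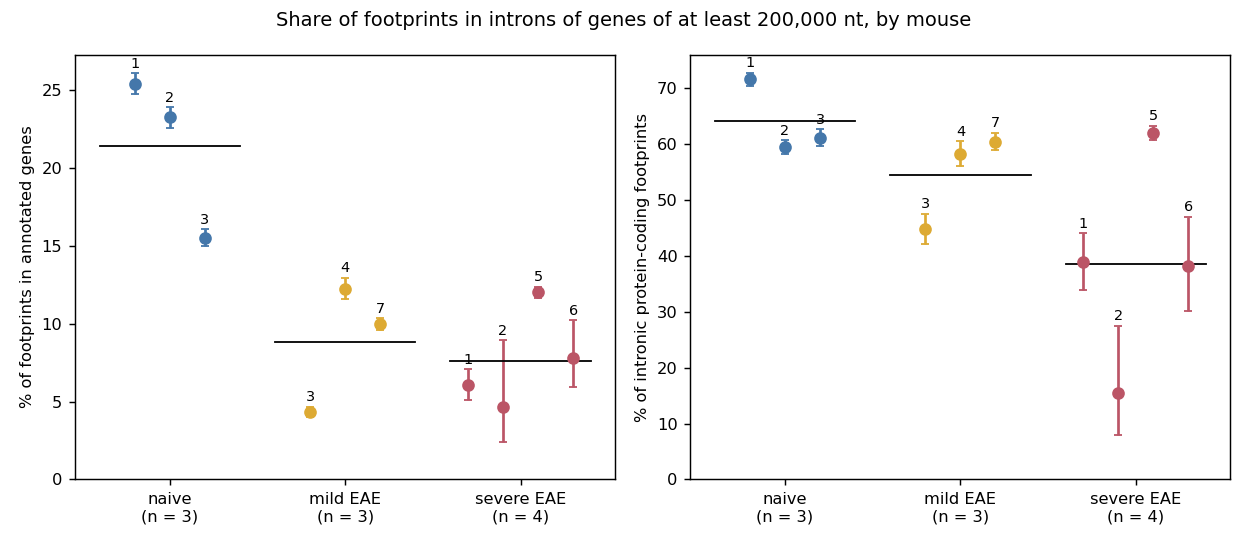
Footprints in introns of genes of at least 200000 nt as a percent of all footprints in genes (left) and of intronic protein-coding footprints (right); each point is a mouse with its number, error bars are 95% Wilson intervals of counting error, and lines are group means. On the left the naïve mice, at 15.5% to 25.4%, lie above every EAE mouse, and on the right the groups overlap.

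Among the gene lists, that of synaptic and axonal adhesion genes held the most footprints in total. All 52 genes of this list are at least 200000 nt long, all held a footprint, 40 did so in at least 5 mice, and together they took 3746 of the 17731 footprints, 21.1%. Their median span was 901914 nt, against 327010 nt over all 998 long genes. Per Mb they held 76.2 footprints, against 41.5 over all long genes and 128 in oligodendrocyte-rich genes. Lsamp, the limbic system adhesion protein, led all long genes with 622. Its counts were 187, 85 and 67 in naïve mice, 8, 39 and 93 in mild disease and 1, 0, 142 and 0 in severe disease. Scaled to 1000 intronic footprints of the mouse, the mean was 21.5 ± 11.1 (SD, n = 3) in naïve and 11.4 ± 11.7 (SD, n = 7) in EAE mice, and the groups overlapped (exact permutation p = 0.225, adjusted p = 0.755 over all genes). Pcdh9, a protocadherin, held 367, Magi2, a synaptic scaffold, 231, and Cntnap2, a partner of axonal potassium channels, 183. Nlgn1, a postsynaptic adhesion molecule, held 162.

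Ion channel and neurotransmitter receptor genes were covered as well. Of 47 genes on the list, 42 were long enough, 40 held a footprint and 33 did so in at least 5 mice, with 1497 footprints in all. Dpp6, an auxiliary subunit of A-type potassium channels, was covered in 9 mice with 104 footprints. Outside that list, Kcnb2, a delayed-rectifier channel, had 62 footprints in 9 mice. Fgf14, which modulates sodium channels, had 165 footprints in 9 mice, and Fam155a, a subunit of the NALCN leak channel complex, 288 in 9 mice. Among RNA-binding proteins, 12 of 29 were long enough and all 12 held a footprint. Rbfox1, a neuronal splicing regulator, had 63, 43 and 48 footprints in naïve mice, 8, 15 and 46 in mild disease and 2, 0, 62 and 1 in severe disease. It was covered in 9 of 10 mice.

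Npas3 was covered in all 10 mice and 14 genes in 9, of which the 11 with the highest mean per 1000 intronic footprints are described and Ank3, Cdk14 and Celf2 followed with 43, 32 and 26 footprints. The counts of Npas3 were 9, 9 and 11 in naïve mice, 1, 2 and 8 in mild disease and 2, 1, 8 and 2 in severe disease. Beside those named above, Spock1, a brain proteoglycan, held 71 footprints, Sntg1, a syntrophin, 88, Dscam 56, Phlpp1, a phosphatase of Akt, 47, and Grk5, a kinase of G protein-coupled receptors, 24. Gm20388 is a read-through model of 4434882 nt that covers 71 other protein-coding genes, and 45 of its 57 footprints also lay in another gene span. Oligodendrocyte-rich genes were the densest list, with 128 footprints per Mb over 18 genes against 41.5 over all 998. Nkain2 held 464 of them and Pde4b, a phosphodiesterase of cyclic AMP, 164. Leukocyte and microglia genes had 34.9 per Mb over 13 genes. Footprints were concentrated in few genes, since the 10 with most held 18.3% and the 50 with most 45.2%. Members of a list can lie in 2 lists, and a footprint in overlapping spans was counted for each gene.

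No single gene passed the test between naïve and EAE mice. For 2345 protein-coding genes with an intronic footprint in at least 2 mice, footprints per 1000 intronic footprints were compared by an exact permutation test. None had an adjusted p under 0.05, the smallest was 0.279, and at least 391 genes would have had to reach the smallest p for that. At an unadjusted p under 0.05, 81 of the 753 long genes tested were lower in EAE, against 6.44% of all genes tested, and 0 were higher, against 0%. The 81 are 10.8% of the long genes, and among the shorter genes the share was 4.40%. Groups did not overlap, with EAE lower, for 32 of the 753 long genes, against 3.03% of all genes tested, and no long gene had EAE higher without overlap, against 0.0426%. Without severe EAE mice 1, 2 and 6 the counts at an unadjusted p under 0.05 were 27 lower and 3 higher of 746 long genes, 3.62% and 0.402%, against 2.56% and 0.434% of all 2302 genes tested. Scaled to footprints in genes, 245 long genes were lower, 32.5% against 15.7% of all genes. In severe EAE mice 1, 2 and 6, 0 footprints in a gene allow up to 8.52, 57.7 and 24.4 per 1000 intronic footprints. These values are above the naïve mean of every gene named in the next paragraph. A single footprint in these mice counts as 2.84, 19.2 and 8.13 per 1000, so a gene raised in them has a wide spread. The test could therefore hardly call a gene higher in EAE, and the lack of such calls is not a result about long genes.

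Of the 32 genes without overlap, the 5 with the largest differences were Tenm2, Robo1, Ccser1, Dcc and Pcsk2. Tenm2 encodes a teneurin of synaptic contacts, and its counts were 26, 18 and 14 in naïve mice, 1, 4 and 10 in mild disease and 0, 0, 15 and 0 in severe disease. Per 1000 intronic footprints this is 3.71 ± 0.94 (SD, n = 3) against 1.17 ± 1.27 (SD, n = 7) (exact permutation p = 0.0167, adjusted p = 0.338). Robo1, a receptor of Slit guidance cues, had 23, 13 and 14, then 2, 1 and 4, then 0, 0, 11 and 0, or 3.26 ± 1.06 (SD, n = 3) against 0.722 ± 0.795 (SD, n = 7) (exact permutation p = 0.00833, adjusted p = 0.279). Dcc, the netrin receptor, had 24 footprints in naïve and 7 in EAE mice. Ccser1 had 47 and 19, and Pcsk2, a convertase of prohormones, had 20 and 3. In all 5 genes the EAE footprints came mainly from mild EAE mouse 7 and severe EAE mouse 5, the EAE mice with the longest lists.

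By list, 555 of the 753 long genes tested and 44 of the 51 adhesion genes had a lower mean in EAE. Among these synaptic and axonal adhesion genes, 8 had an unadjusted p under 0.05 with EAE lower and 0 with EAE higher, where 10.8% of long genes and 6.44% of all genes were lower, and the median difference was −0.576 per 1000. Over all 753 long genes the median was −0.143, and over all 2345 genes −0.0506. A lower mean was therefore the more common one over all genes too, and is not by itself a trait of a list. Severe EAE mice 1, 2 and 6 had 352, 52 and 123 intronic footprints in all, so most of the 2345 genes were at 0 in them. For 40 channel and receptor genes the counts were 3 and 0 with a median of −0.335. For 11 RNA-binding genes they were 1 and 0 with −0.395, for 21 cytoskeleton genes 3 and 0 with −0.150, for 18 oligodendrocyte-rich genes 2 and 0 with −0.744, for 15 astrocyte-rich genes 1 and 0 with −0.193, and for 29 signalling genes 5 and 0 with −0.211. The 9 leukocyte and microglia genes had 0 and 0 with a median of 0.0599. The lists share genes and all contrasts share the same naïve mice.

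Within introns the footprints leaned to the 5′ end, and few lay close to an exon. Of the footprints in a single gene span, 62.3%, 58.4% and 60.9% lay in the 5′-proximal 50% of their intron in naïve mice, and 54.5% to 71.4% in EAE mice. The mean was 61.5% ± 4.58 (SD, n = 10), above 50% in all 10 mice (exact sign-flip test, adjusted p = 0.00521), and 50% of the intronic sequence lies there. Naïve and EAE mice had means of 60.6% and 61.9% (exact permutation test, adjusted p = 0.683). Divided into 10 bins of equal length, the last bin of the intron held 3.98% of the footprints in naïve mouse 1, 5.69% in naïve mouse 2 and 4.19% in severe EAE mouse 5, while the second bin held 13.6%, 12.1% and 15.4%. The lean was larger in longer introns. In introns under 50000 nt the 5′-proximal share in naïve mice 1, 2 and 3 was 52.8%, 52.7% and 46.4%, and in introns over 200000 nt it was 68.8%, 64.4% and 70.8%.

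**Figure D5:**
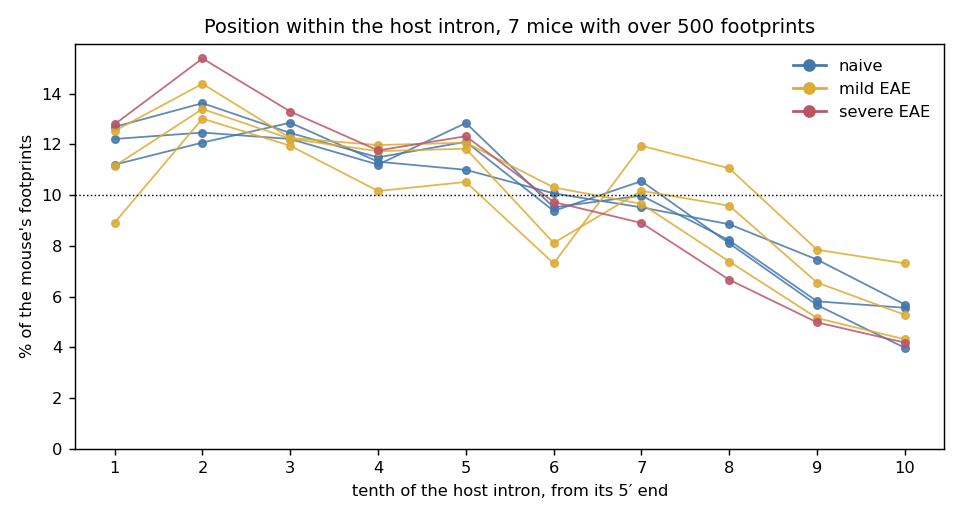
Percent of intronic footprints of long genes in each of 10 equal bins of the host intron, from its 5′ end, for the 7 mice with at least 500 footprints; each line is a mouse, coloured by group, and the dotted line is an even spread. All 7 lines are above 10% in the second bin and below it in the last, where naïve mice 1 and 2 are at 3.98% and 5.69%.

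The host introns were very long, with a median of 95601 to 175865 nt by mouse, and the median distance to the nearest exon was 18045 to 38198 nt. Within 500 nt of an exon lay 1.23%, 2.70% and 2.02% of the footprints in naïve mice and 0% to 2.44% in EAE mice, against 5.27% of the intronic sequence. The difference of −3.77 ± 0.95 percentage points (SD, n = 10) was negative in all 10 mice (exact sign-flip test, adjusted p = 0.00521). The 5.27% pools introns of every length in all long genes and was not matched to the host introns. In longer introns a smaller part of the sequence lies near an exon, so the test cannot show that footprints avoid exons. The 0% values came from severe EAE mice 2 and 6, where 0 of 7 and 0 of 45 footprints allow shares of up to 42.9% and 6.67%, taken as 3 footprints of each list. Naïve and EAE mice did not differ beyond their spread (exact permutation test, adjusted p = 0.625).

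Footprints had median lengths of 125 to 149 nt. The median in long genes exceeded that in shorter genes by 1.65 ± 3.67 nt (SD, n = 10), which is within the spread (exact sign-flip test, adjusted p = 0.219), although leaving out severe EAE mouse 2 gave 2.28 nt with an adjusted p of 0.0357. GC content was 41.5% to 46.6% and lay 1.67 ± 1.33 points (SD, n = 10) above the flanks (exact sign-flip test, adjusted p = 0.00781). Soft-masked sequence exceeded the flanks by 12.0 ± 8.16 points (SD, n = 10), in all 10 mice (exact sign-flip test, adjusted p = 0.00521). It made up 38.8% to 44.8% of footprint sequence in the naïve mice, mild EAE mouse 7 and severe EAE mouse 5, and 53.8% to 73.8% in the 5 shorter lists. The 5 contrasts of length, composition and position between naïve and EAE mice had adjusted p values of 0.625 to 0.683 by the exact permutation test.

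Any 2 mice shared only part of these footprints. Over the 21 pairs of the 7 mice with at least 500, 7.27% to 45.3% of the shorter list overlapped the other, with a mean of 23.9%, close to the 22.9% of intronic footprints in shorter genes and below the 35.0% of exonic footprints. Naïve mouse 2 stood apart: 18.3% of its footprints lay in a region of another mouse, against 40.6% and 45.1% in the other 2 naïve mice, and a UAG array was present in 1.31% of its footprints against 4.57% and 7.71%. Its library had the fewest mapped unique reads of the immunoprecipitation libraries in the paper's supplement, and the part of this was not tested. Marker genes of the tissue were present, with footprints over the span of Mbp in 10 mice, of Slc1a2 in 9 and of Snap25 in 8, and 5 hepatocyte genes had none. Some other markers of these cell types were found in fewer mice: Gfap, Slc1a3 and Mog in 4 each and Nefl in 5. Of the leukocyte and microglia markers, Cd74 and C1qa had footprints in 0 naïve and 5 EAE mice each. Csf1r had them in 0 naïve, 3 mild EAE and 3 severe EAE mice, and C1qb in 1, 3 and 2. Ptprc had them in 1 mild EAE mouse only, and Cd3e in no mouse. At the length limit, the 38 genes up to 5000 nt too short held 135 intronic footprints, with a median of 3, and the 30 genes less than 5000 nt above it held 89, with a median of 1.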

How the data were processed

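Per the labels and the study's methods, spinal cords were UV-crosslinked, hnRNP A1 was immunoprecipitated and the RNA sequenced. The authors converted reads with bcl2fastq 2.19.0.316, trimmed them with fastp, assembled contigs with rnaSPAdes, aligned these with minimap2 2.17 to GRCm38, subtracted sites of the matched input or of pooled IgG and merged overlapping sites with bedtools. The deposited files are lists of chromosome, start and end, without strand, score or number of reads, and depth per footprint is therefore unknown. The age at immunisation is given as 12 weeks in the protocols and 8 weeks in the design text.

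Footprints were placed on GENCODE M21 with Python 3.11.15, and sequence was read from GRCm38 with pysam 0.24.0. Motifs were counted on the gene strand for footprints in 1 gene span. Mice were the unit of every test: exact two-sided permutation of mice (120 splits for 3 against 7) and exact sign-flip tests over 10 mice (1024 sign patterns), with Benjamini-Hochberg adjustment within families of 3, 3, 2, 8 and 5 results and, for single genes, over all 2345 tested. The gene test was checked on simulated data. Named genes were the 12 covered in the most mice, with ties ordered by mean footprints per 1000 intronic footprints, list genes covered in at least 5 mice, and the 5 with the largest difference in each direction among genes without overlap, of which there were none higher in EAE. The 8 named regions were those in the most mice, with ties ordered by the length of the stretch common to all their mice. The groups, members and lists were chosen with earlier results of these data known. Ank3, Nrg1, Gab2 and Stk3 regions and the array counts were chosen after values were seen. Inputs and IgG pools were not analysed here. Replicates are separate mice, and mild and severe groups follow the clinical scores of the labels. Alternatives were other span, length and distance limits, covered nucleotides, other denominators and flanks, repeat filters, short lists left out, each mouse left out and a replicate block.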

Additional observations from a re-analysis of the deposited data

Results flagged for a closer look

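Among the 4 severe EAE mice, mouse 5 held 3563 intronic footprints of long genes, far from the other 3, which held 137, 8 and 47. GC content of these footprints was 46.6% in severe EAE mouse 1, apart from the 42.1% to 42.3% of the other 3. The limit used for these flags is one that chance alone passes in about 1 of 20 such groups, if the values are normally distributed. That rate is for 1 quantity in 1 group. It cannot be relied on here, because the counts are very unequal and severe EAE mouse 2 had only 8 footprints. The flags therefore give no measure of how rare these values are.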

How the results depend on the processing

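The lower share of gene footprints in EAE kept its direction under every alternative run, and its adjusted p stayed at 0.025 with gene limits of 100000 and 500000 nt, no exon overlap, covered nucleotides, footprints of at least 30 or at most 1000 nt, all footprints as denominator and without Gm20388. Without severe EAE mice 1, 2 and 6 it was −11.8 points (exact permutation test, adjusted p = 0.0571). Leaving out 1 mouse at a time gave −16.2 to −11.2 points for all EAE and −16.7 to −11.7 for severe EAE. Leaving out any 1 naïve mouse raised the adjusted p for all EAE to 0.0833, since 2 against 7 mice allow no p below 0.0278, and leaving out any mouse ended the severe EAE call, with adjusted p = 0.1, the smallest possible there being 0.0667 or 0.1 (exact permutation tests). Leaving out 1 mouse moved the UAG difference from shorter genes between 0.20 and 0.31, the length difference from shorter genes between 0.667 and 2.28 nt, the EAE difference in median length between −1.86 and 7.64 nt, and that in the 5′-proximal share between −0.207 and 2.61 points. As mean log2 length the EAE difference was −0.12 in place of 4.48 nt in the median, and neither passed the test. The 81 long genes with an unadjusted p under 0.05 and EAE lower became 245 when scaled to footprints in genes and 27, with 3 higher in place of 0, without severe EAE mice 1, 2 and 6. The cause of these changes was not tested. A replicate block, the mean difference of same-numbered naïve and EAE mice 1, 2 and 3, gave −16.4 points for the share of gene footprints and −31.1 for the share of intronic footprints, each with p = 0.25 by an exact sign-flip test, the smallest that 3 pairs allow. Numbers name different animals, and the correlations of same-numbered mice, −0.07, 0.13 and 0.03 across genes, do not pair them. The UAG and AGGU ratios to flanks and the position, distance, GC and repeat results over mice kept their calls under all alternatives run, whereas the UAG difference from shorter genes gained a call without naïve mouse 1 or 2.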
